A study of Mus musculus with 8 samples.

Results

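The interferon receptor chains Ifnar1, Ifnar2 and Ifngr1, the signal transducer Stat2 and the interferon regulatory factors (IRFs) Irf1, Irf3, Irf7, Irf8 and Irf9 were followed as transcripts in bulk RNA from the mouse prefrontal cortex. These 9 genes were selected by symbol and all 9 were found among the 23393 named genes of the count tables. All 9 also passed the filter on low counts, which left 17415 genes for testing.

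There were 8 libraries in 4 groups of 2, all from C57BL6/J mice given an adeno-associated virus (AAV9), which the design text puts at 6 to 8 weeks of age. The group called shAdnp carries Adnp in its titles and was set against a pair of libraries from mice injected with AAV9 for green fluorescent protein (GFP), the Adnp-set controls. The group called shPogz carries Pogz in its titles and was set against a second GFP pair, the Pogz-set controls. The design text describes hairpin RNA knockdown of Adnp and Pogz, but the treatment label of both groups reads shRNA_ASH1L-AAV9, so the groups are named here by their titles. The virus promoter, the injected dose, the sex of the mice and the time from injection are unstated in those sources, and the design text counts 3 knockdown mice where 2 libraries a group were analysed.

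Total counts ranged from 27501722 to 69002749 per library. Adnp, the gene named in the titles, had 87.2 and 118 CPM (counts scaled to library size) in shAdnp, against 137 and 111 CPM in its controls (log2 fold change -0.27, SE 0.19, edgeR adjusted p = 0.768). Pogz had 49 and 37.3 CPM in shPogz, against 54.4 and 53.1 CPM in its controls (log2 fold change -0.32, SE 0.16, edgeR adjusted p = 0.667). Ash1l had 292 and 330 CPM in shAdnp, against 364 and 301 CPM in its controls, and 299 and 273 CPM in shPogz, against 243 and 288 CPM in its controls. The Pogz groups did not overlap for Pogz, the Adnp groups overlapped for Adnp, and neither gene passed the test. Markers of cortical neurons such as Snap25, Rbfox3 and Slc17a7 summed to between 5370 and 7860 CPM over 9 genes in every library. The lowest sum was that of shPogz replicate 2 and the highest that of replicate 1 of the Adnp-set controls.

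Interferons are secreted antiviral cytokines. Type I interferons bind the receptor made of the IFNAR1 and IFNAR2 chains, and the signal reaches the nucleus as ISGF3, a complex that holds STAT2 and the DNA-binding protein IRF9 and that binds the interferon-stimulated response element (ISRE). Interferon gamma binds the receptor of which IFNGR1 is the ligand-binding chain and acts through gamma-activated sites (GAS), with IRF1 as a well known induced factor. IRF3 is made constantly and is activated by phosphorylation when a cell senses viral nucleic acid, IRF7 is itself induced by interferon and drives further interferon alpha production, and IRF8 is a lineage factor of myeloid cells that in the brain marks microglia. Neurons, astrocytes and microglia all carry interferon receptors, and microglia respond strongly.

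Promoters of 4 of the genes are shown because these genes varied most between libraries or carry a textbook element. Each is the RefSeq window on GRCm38.p6, the assembly of build mm10, from 250 bases before to 50 bases after the annotated start, with matched motif letters in capitals. The ISRE was searched as GAAANNGAAA or TTTCNNTTTC and the GAS as TTCNNNGAA, on both strands, and overlaps between motifs were allowed.
Stat2, chr10:128270248-128270547, plus strand: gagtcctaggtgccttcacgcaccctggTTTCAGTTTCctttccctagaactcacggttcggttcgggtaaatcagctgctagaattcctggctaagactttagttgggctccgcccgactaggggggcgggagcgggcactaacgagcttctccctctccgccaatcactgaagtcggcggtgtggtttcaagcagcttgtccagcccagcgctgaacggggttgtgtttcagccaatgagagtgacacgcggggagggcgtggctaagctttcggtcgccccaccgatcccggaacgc
Irf1, chr11:53769764-53770063, plus strand: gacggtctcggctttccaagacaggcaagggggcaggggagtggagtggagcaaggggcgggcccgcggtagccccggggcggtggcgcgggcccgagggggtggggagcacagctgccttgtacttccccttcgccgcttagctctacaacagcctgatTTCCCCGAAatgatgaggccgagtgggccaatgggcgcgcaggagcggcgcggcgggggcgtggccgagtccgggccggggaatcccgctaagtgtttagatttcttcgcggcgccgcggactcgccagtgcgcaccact
Irf8, chr8:120736108-120736407, plus strand: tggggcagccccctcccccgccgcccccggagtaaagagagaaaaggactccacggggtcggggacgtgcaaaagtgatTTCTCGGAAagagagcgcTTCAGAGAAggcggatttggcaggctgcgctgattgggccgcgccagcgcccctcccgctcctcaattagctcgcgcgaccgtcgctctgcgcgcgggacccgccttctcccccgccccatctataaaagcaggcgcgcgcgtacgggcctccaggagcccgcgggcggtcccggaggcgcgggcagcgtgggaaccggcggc
Irf7, chr7:141266375-141266674, minus strand: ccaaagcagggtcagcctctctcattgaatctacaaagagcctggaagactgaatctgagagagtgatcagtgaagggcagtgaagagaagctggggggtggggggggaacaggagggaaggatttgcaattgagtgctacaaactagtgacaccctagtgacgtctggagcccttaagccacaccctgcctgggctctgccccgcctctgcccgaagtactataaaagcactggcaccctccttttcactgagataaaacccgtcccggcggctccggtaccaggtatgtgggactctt

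The Stat2 window held an ISRE match, TTTCAGTTTC, whose first base lay 222 bases before the start. The Irf1 window held a GAS match, TTCCCCGAA, 90 bases before its start. The Irf8 window held the GAS matches TTCTCGGAA, 171 bases before its start, and TTCAGAGAA, 153 bases before it. The printed Irf7 window held neither set of letters, which says nothing of the factors that bind there. Of the other genes, Ifnar2 held TTCCTGGAA 214 bases before its start and Ifnar1 held TTCACGGAA 5 bases before its start, while Ifngr1, Irf3 and Irf9 held no match. In all, 1 of the 9 genes had an ISRE match and 4 of 9 had a GAS match, against 3.99% and 9.55% of the 27025 genes with a promoter window. Of the interferon-stimulated genes listed as ISGF3 targets, 7 of the 14 with a window had an ISRE match, among them Isg15, Ifit1, Ifit3 and Rsad2. Of the genes listed as IRF1 targets, 5 of the 10 with a window had an ISRE match. A GAS match was found for 28.6% of the ISGF3 targets and 30% of the IRF1 targets with a window. These matches are descriptions of letters and were not tied to any measured binding.

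The fitted mean of each of the 9 genes lay above that of the controls in shAdnp and in shPogz, with the widest margins for Irf8 in shAdnp and Irf7 in shPogz. None of these differences passed edgeR's adjusted p at 0.05 (0 of 9 in each comparison, as for 0% of all genes tested). The 9 genes varied to very different degrees. Irf7 spanned a 45.8-fold range over the 8 libraries, Irf1 17.5-fold, Irf8 14.3-fold and Irf9 10-fold, whereas Stat2 spanned 5.62-fold, Ifngr1 2.68-fold and Ifnar2 2.29-fold. Irf3 spanned 1.39-fold and Ifnar1 1.26-fold, the smallest ranges of the 9. Replicate 1 of the Adnp-set controls was the lowest library for 8 of the 9 genes, Irf3 being the exception, and shPogz replicate 2 was the highest for 7 of the 9, the exceptions being Ifnar1 and Irf3. The main fold changes and counts of calls below are therefore also given without those libraries.

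**Figure D1:**
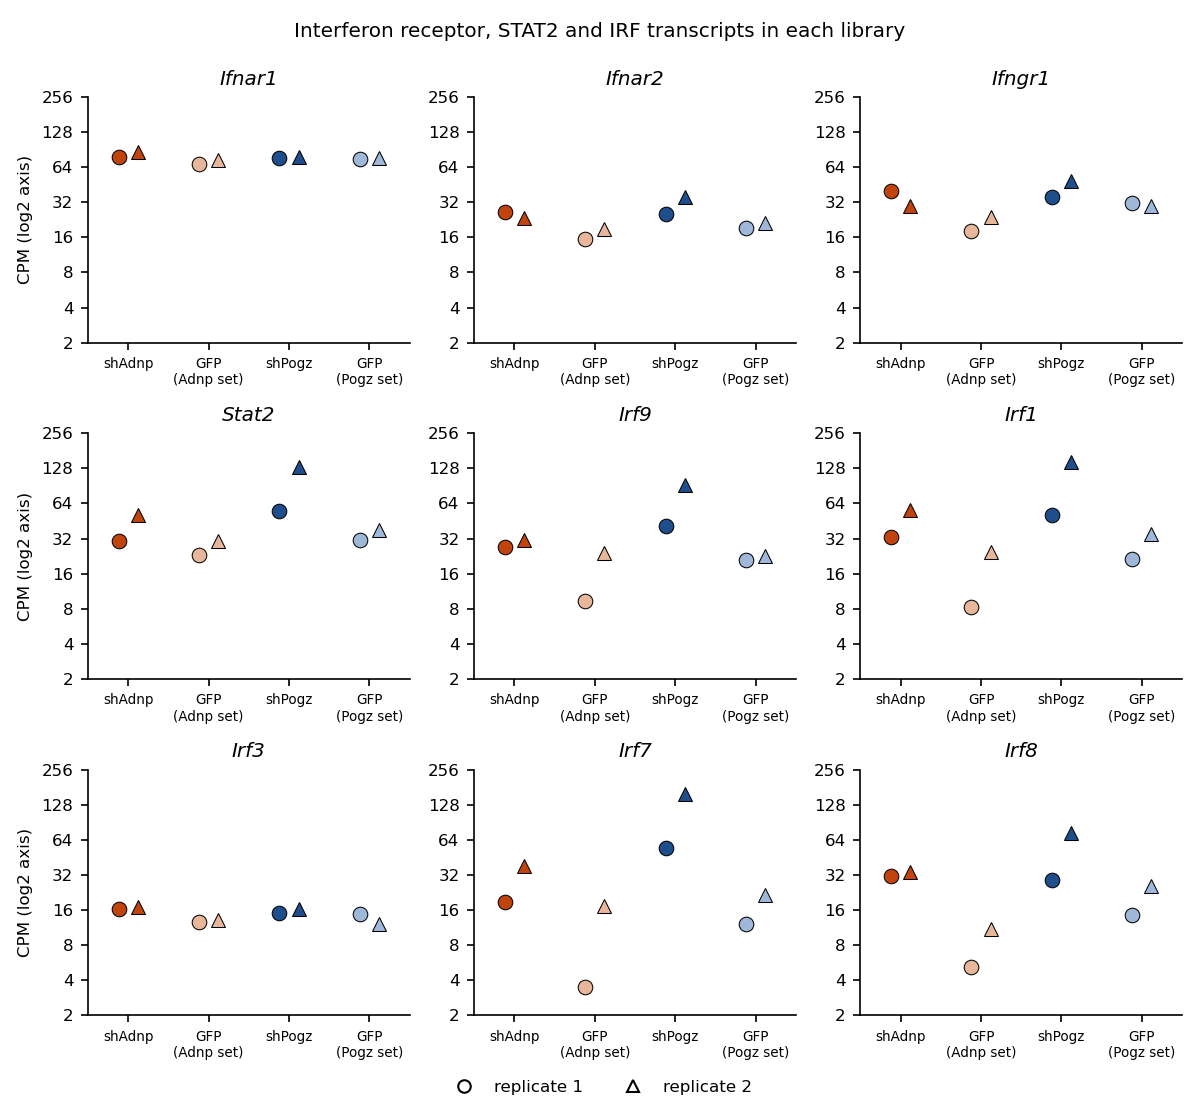
CPM of each of the 9 genes (log2 axis) in each library, grouped as shAdnp, its GFP controls, shPogz and its GFP controls, with a circle for replicate 1 and a triangle for replicate 2. Irf7 runs between 3.48 and 159 CPM, while Ifnar1 stays between 68.3 and 85.9 CPM.

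Among the receptor chains, Ifnar1 (chr16:91485238-91507441, plus strand) was nearly level. It had 79.1 and 85.9 CPM in shAdnp, against 68.3 and 74.2 CPM in its controls, and 77.2 and 77.9 CPM in shPogz, against 75.2 and 77 CPM in its controls. The log2 fold change was 0.21 (SE 0.10, adjusted p = 0.623) in shAdnp and 0.03 (SE 0.10, adjusted p = 0.945) in shPogz. The knockdown libraries lay above their own controls in both sets, by a margin that for shPogz was smaller than the standard error. In bulk tissue, a change in the number of cells of a type and a change in RNA per cell cannot be told apart. This holds here and for every gene below.

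Ifnar2 (chr16:91372783-91405589, plus strand), the chain that anchors the kinase JAK1, had 26.5 and 23.6 CPM in shAdnp, against 15.5 and 18.9 CPM in its controls. It had 25.2 and 35.5 CPM in shPogz, against 19.1 and 21.2 CPM in its controls. Neither pair of groups overlapped. Its fitted log2 fold change was 0.54 (SE 0.18, unadjusted p = 0.0125, adjusted p = 0.398) in shAdnp and 0.59 (SE 0.18, unadjusted p = 0.00819, adjusted p = 0.667) in shPogz, by edgeR's quasi-likelihood test. The 2 fold changes differed by 0.05. Of its exon bases 9.46% are shared with the gene model Gm21970 on the same strand, so reads there could be counted for either gene.

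Ifngr1 (chr10:19591949-19610229, plus strand) had 40.3 and 29.9 CPM in shAdnp, against 18.3 and 23.9 CPM in its controls, and 35.9 and 49.2 CPM in shPogz, against 31.4 and 29.7 CPM in its controls. The groups did not overlap in either set. By edgeR the estimate was, on the log2 scale, 0.73 (SE 0.20, unadjusted p = 0.00596, adjusted p = 0.334) in shAdnp and 0.48 (SE 0.20, unadjusted p = 0.0442, adjusted p = 0.667) in shPogz. Ifngr1 in shAdnp was the single result among the 9 genes and these 2 comparisons that DESeq2 called (adjusted p = 0.023).

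Stat2 and Irf9, the partners in ISGF3, stood highest in shPogz. Stat2 (chr10:128270559-128292849, plus strand) had 55.5 and 131 CPM in shPogz, against 31.1 and 37.9 CPM in its controls. In shAdnp it had 30.6 and 51.2 CPM, against 23.3 and 30.7 CPM in its controls, and this was the only case among the 9 genes and both sets in which the groups overlapped. The log2 fold change was 1.43 (SE 0.48, unadjusted p = 0.0283, adjusted p = 0.667) in shPogz and 0.60 (SE 0.47, adjusted p = 0.817) in shAdnp.

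Irf9 (chr14:55603571-55610030, plus strand) had 40.9 and 92.5 CPM in shPogz, against 20.9 and 22.5 CPM in its controls. In shAdnp it had 26.8 and 30.9 CPM, against 9.24 and 23.9 CPM in its controls. The shAdnp libraries differed from each other by 1.15-fold and their controls by 2.59-fold, so the control pair held most of the spread. Its fitted log2 fold change was 1.62 (SE 0.58, unadjusted p = 0.0382, adjusted p = 0.667) in shPogz and 0.80 (SE 0.57, adjusted p = 0.795) in shAdnp. Without replicate 1 of the Adnp-set controls the shAdnp value was 0.29, and without replicate 2 of them it was 1.64. Irf9 shares 2.28% of its exon bases with Rnf31 on the same strand.

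Irf7 (chr7:141262706-141266481, minus strand) had the largest fold change of the 9 genes in shPogz. It had 2311 and 6083 counts in shPogz, against 342 and 1519 counts in its controls, or 54.1 and 159 CPM in shPogz, against 12.1 and 21.6 CPM in its controls. In shAdnp it had 18.8 and 37.8 CPM, against 3.48 and 17.4 CPM in its controls. Within a group the higher library was between 1.78 and 4.99 times the lower, and in shAdnp the lower library lay just above the higher of its controls. By edgeR the estimate was, on the log2 scale, 2.65 (SE 1.02, 95% interval -0.03 to 5.33, unadjusted p = 0.0517, adjusted p = 0.667) in shPogz and 1.44 (SE 0.99, 95% interval -1.16 to 4.04, adjusted p = 0.788) in shAdnp. Leaving out shPogz replicate 2 brought the shPogz value to 1.67, and leaving out replicate 1 of the Adnp-set controls brought the shAdnp value to 0.72. Irf7 shares 1.19% of its exon bases with Phrf1 on the opposite strand.

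Irf1 (chr11:53770014-53778374, plus strand) had 51.2 and 145 CPM in shPogz, against 21.3 and 35.1 CPM in its controls, and 33.3 and 56.6 CPM in shAdnp, against 8.29 and 24.7 CPM in its controls. Neither pair of groups overlapped. The log2 fold change was 1.79 (SE 0.79, unadjusted p = 0.0762, adjusted p = 0.667) in shPogz and 1.44 (SE 0.79, unadjusted p = 0.129, adjusted p = 0.728) in shAdnp. It came to 0.85 in shPogz without shPogz replicate 2 and to 0.88 in shAdnp without replicate 1 of its controls. Irf1 shares 3.4% of its exon bases with Gm17334 on the opposite strand.

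Irf8 (chr8:120736358-120756694, plus strand) had the largest fold change of the 9 genes in shAdnp. It had 31.1 and 33.5 CPM in shAdnp, against 5.12 and 11 CPM in its controls, and 28.6 and 73.3 CPM in shPogz, against 14.4 and 25.6 CPM in its controls. The shAdnp libraries lay close together and well above their controls, while in shPogz the lower library lay near the higher control. Its fitted log2 fold change was 2 (SE 0.63, 95% interval 0.38 to 3.62, unadjusted p = 0.0244, adjusted p = 0.48) in shAdnp and 1.34 (SE 0.61, unadjusted p = 0.08, adjusted p = 0.667) in shPogz. Without shPogz replicate 2 the shPogz value was 0.51, and over the libraries left out the shAdnp value ran between 1.57 and 2.66.

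Irf3 (chr7:44997648-45002848, plus strand), the constitutive sensor-activated factor, was the steadiest of the 5 IRFs among the 9 genes. It had 16.4 and 16.8 CPM in shAdnp, against 12.6 and 13.2 CPM in its controls, and 15.1 and 16.4 CPM in shPogz, against 14.6 and 12.1 CPM in its controls. The groups did not overlap in either set although the differences were small. By edgeR the estimate was, on the log2 scale, 0.36 (SE 0.14, unadjusted p = 0.0257, adjusted p = 0.487) in shAdnp and 0.24 (SE 0.14, adjusted p = 0.67) in shPogz. Irf3 shares 2.56% of its exon bases with Bcl2l12 on the opposite strand.

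**Figure D2:**
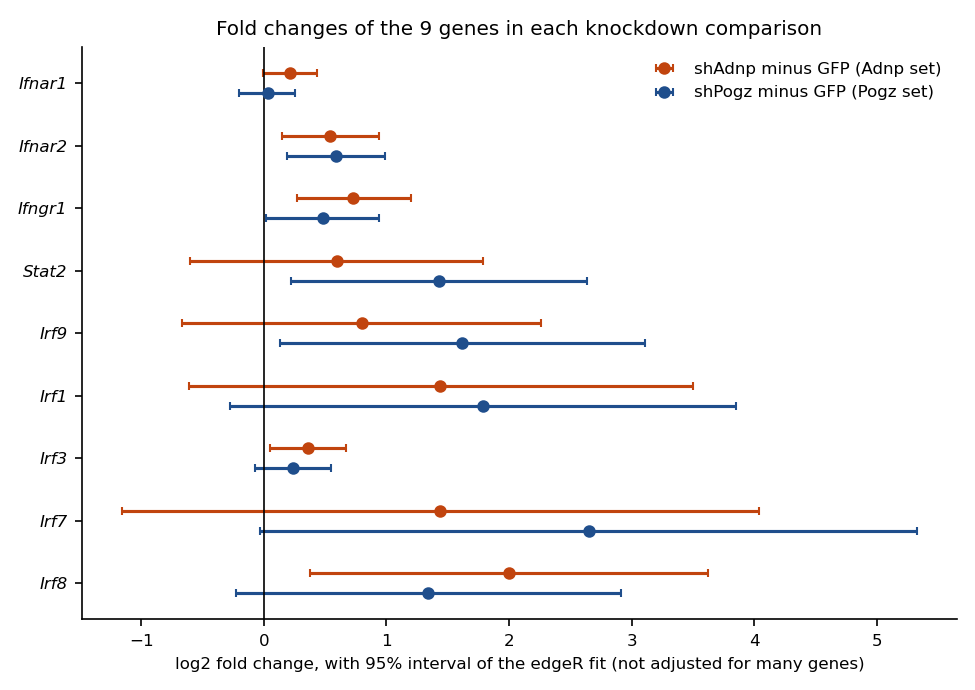
Log2 fold change of each gene in shAdnp (orange) and shPogz (blue) over its own GFP controls, with the 95% interval of the edgeR fit, not adjusted for the number of genes. All estimates lie above 0, the intervals of Ifnar2 and Ifngr1 exclude 0 in both comparisons, and Irf7 has the widest interval, reaching 5.33.

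Over the 9 genes, shAdnp gave 9 of 9 fold changes above 0, and the median of the 9 was 0.73 on the log2 scale, where the median over all tested genes was -0.01. By edgeR's adjusted p, 0 of 9 passed and 0% of all genes passed. At an unadjusted p under 0.05, 4 of 9 passed upward (Ifnar2, Ifngr1, Irf3 and Irf8), beside 6.67% of all genes. The groups did not overlap, with shAdnp higher, for 8 of 9, beside 20.4% of all genes. DESeq2 called 1 of 9 upward, beside 2.39% of all genes, and limma-voom called 0 genes. Without replicate 1 of the controls 1 of 9 passed the unadjusted threshold upward, beside 2.88% of all genes, and DESeq2 called 0 of 9, beside 0.0402%. Without replicate 2 of the controls 6 of 9 passed, beside 7.55% of all genes, and DESeq2 called 4 of 9, beside 3.38%. With shAdnp replicate 1 left out 3 of 9 passed, beside 5.77%, and with shAdnp replicate 2 left out 2 of 9 did, beside 5.3%.

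shPogz also gave 9 of 9 fold changes above 0, with a median of 1.34 where all genes had -0.02. By edgeR's adjusted p, 0 of 9 passed and 0% of all genes passed. At an unadjusted p under 0.05, 4 of 9 passed upward (Ifnar2, Ifngr1, Stat2 and Irf9), beside 4.05% of all genes. The groups did not overlap, with shPogz higher, for 9 of 9, beside 19% of all genes. DESeq2 called 0 of 9, beside 0.574% of all genes called upward, and limma-voom called 0 genes. Ifnar2 and Ifngr1 were thus under the unadjusted threshold in both comparisons. The comparisons do not share controls, but both took their spread from 1 fit to all 8 libraries, so their p-values are not independent.

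The median of the 9 genes in shPogz was 0.51 when shPogz replicate 2 was left out and 1.9 when replicate 1 was. In shAdnp it was 0.43 without replicate 1 of the controls and 0.94 without replicate 2 of the controls. With both outlying libraries left out, a choice made after seeing the data, the medians were 0.41 in shAdnp and 0.51 in shPogz, and Irf7, Irf9, Irf1, Stat2 and Irf8 had log2 fold changes of 1.67, 0.91, 0.85, 0.68 and 0.51 in shPogz. Every one of the 9 genes kept a fold change above 0 in shAdnp and in shPogz whichever library was left out. Without shPogz replicate 2, 0 of 9 passed the unadjusted threshold upward in shPogz, beside 0.709% of all genes, and DESeq2 called 0 of 9, beside 0.0115%. Without shPogz replicate 1, 6 of 9 passed, beside 9.23% of all genes, and DESeq2 called 3 of 9, beside 3.36%. With replicate 1 of the Pogz-set controls left out 2 of 9 passed, beside 1.26%, and with replicate 2 of them left out 1 of 9 did, beside 5.43%.

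**Figure D3:**
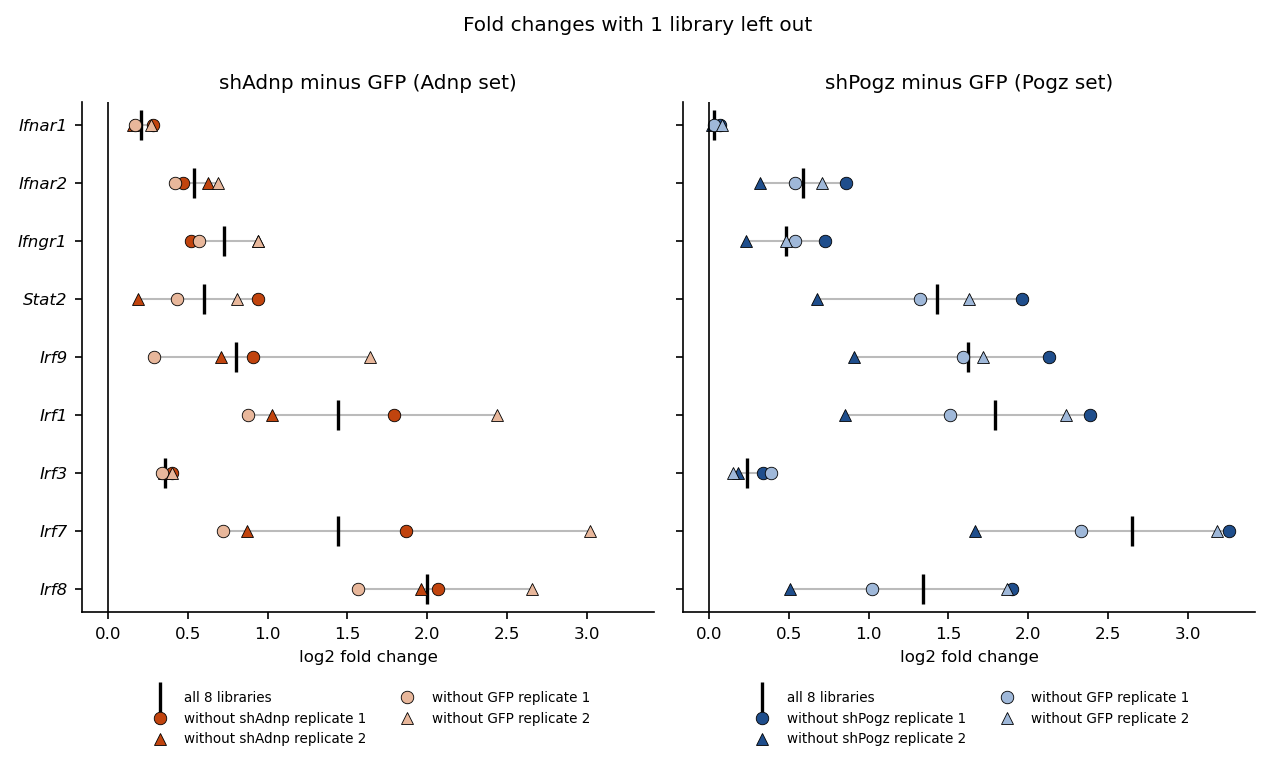
Log2 fold change of each gene with all 8 libraries (black bar) and with each library of the comparison left out in turn (symbols), shAdnp on the left and shPogz on the right. Leaving out shPogz replicate 2 gives the lowest shPogz value for every gene but Irf3, with Irf8 at 0.51, and all values stay above 0.

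The average of both responses was 1 contrast over all 8 libraries, in a model that also held a term for the set. At an unadjusted p under 0.05, 8 of 9 genes passed upward, all but Ifnar1, beside 8.84% of all genes, and 0 of 9 passed the adjusted p, as did 0% of all genes. The smallest adjusted p among the 9 belonged to Ifnar2, with a log2 fold change of 0.57 (SE 0.12, 95% interval 0.3 to 0.83, unadjusted p = 0.000698, adjusted p = 0.142). Irf8 averaged 1.67 (95% interval 0.64 to 2.7, adjusted p = 0.234) and Irf7 2.05 (95% interval 0.3 to 3.8, adjusted p = 0.339). DESeq2 called 4 of 9 upward, beside 4% of all genes, namely Ifnar2 (adjusted p = 0.00142), Ifngr1 (0.00256), Irf8 (0.0064) and Irf1 (0.0426). The calls among these 9 genes therefore depended on the tool, and they also depended on single libraries. The 8 of 9 became 4 of 9 without shAdnp replicate 2 (9.19% of all genes) or without replicate 1 of the Pogz-set controls (7.11%), 5 of 9 without replicate 2 of the Pogz-set controls (8.59%) and 6 of 9 without shPogz replicate 2 (5.57%). With any other library left out the count fell less or not at all, and the DESeq2 calls also moved with the library left out. The Irf7 average was 1.53 without shPogz replicate 2 and 2.78 without replicate 2 of the Adnp-set controls.

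The difference between the responses, shPogz minus shAdnp, was tested directly. Stat2 had a difference of 0.83 (SE 0.67), Irf9 0.82 (SE 0.80), Irf7 1.21 (SE 1.37, 95% interval -2.41 to 4.82) and Irf8 -0.66 (SE 0.86, 95% interval -2.86 to 1.54). Adjusted p-values of the 9 genes lay between 0.978 and 0.992, and 0 of 9 passed upward even at an unadjusted p under 0.05, beside 1.1% of all genes. By the adjusted p 0% of all genes passed. With intervals this wide, neither a larger response in either set nor an equal one was shown.

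The GFP pairs themselves differed in level. The Pogz-set controls lay above the Adnp-set controls for 9 of 9 genes by the fitted mean, without overlap for 5 of them, beside 21.2% of all genes, with a median log2 difference of 0.39 where all genes had 0.01. Irf8 had the largest, at 14.4 and 25.6 CPM in the Pogz-set controls, against 5.12 and 11 CPM in the Adnp-set controls (log2 difference 1.32, SE 0.62, adjusted p = 0.703). Ifngr1 was the 1 gene of the 9 under the unadjusted threshold (log2 difference 0.53, SE 0.20, unadjusted p = 0.0285, adjusted p = 0.672), beside 4.65% of all genes, and 0 of 9 passed the adjusted p, beside 0.00574% of all genes. Without replicate 1 of the Adnp-set controls the median difference was 0.11, and 7 of 9 genes remained above 0. The sets and any batch between them cannot be told apart.

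Levels between genes were compared as RPKM, which is CPM per kilobase of the pooled exons of all annotated transcripts. For Irf7 the pooled exons formed 1 block of 3776 bases, the whole gene with its introns. The RPKM of Irf7 may therefore be understated beside the other genes, and so may that of Irf9, with 5386 pooled bases. In the Pogz-set controls Ifnar1 averaged 12.8 RPKM and Ifngr1 10.7 RPKM, each apart from the gene below it, and Irf1 at 7.09, Ifnar2 at 6.05, Stat2 at 5.82, Irf7 at 4.46, Irf9 at 4.03, Irf3 at 3.88 and Irf8 at 2.83 RPKM followed, each overlapping its neighbour in the order. In the Adnp-set controls the order began with the same 2 genes, Ifnar1 at 12 and Ifngr1 at 7.41 RPKM, followed by Ifnar2 at 5.17 RPKM, and ended with Irf7 at 2.76 and Irf8 at 1.14 RPKM. In shAdnp Ifnar1 at 13.9, Ifngr1 at 12.3 and Irf1 at 11.3 RPKM came first and overlapped one another in that order, and Irf1 stood apart from Ifnar2, the next gene, at 7.52 RPKM. In shPogz Irf7 averaged 28.2 RPKM and Irf1 24.7 RPKM, at the top of the order, and every neighbouring pair overlapped. By this measure Irf7 was first of 9 in shPogz and sixth in its controls by mean level, although its 2 shPogz libraries stood at 14.3 and 42.1 RPKM. These ranks depend on the exon lengths used.

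The ligands upstream of these receptors were near the limit of detection. Ifnb1, interferon beta, had 6 and 36 counts in shPogz, against 0 and 0 counts in its controls, and 2 and 2 counts in shAdnp, against 0 and 0 counts in its controls. Taking 3 counts over the control pair as the limit, or 0.0304 CPM, Ifnb1 in shPogz was 17.1-fold above it, at 0.519 CPM over the group. This ratio takes the shPogz counts as exact and leaves out their sampling noise and the spread between mice, and Ifnb1 was not tested. The ratio rests mostly on shPogz replicate 2, which held 36 of the counts. By the same reckoning shPogz replicate 1 alone, at 0.14 CPM, was 4.61-fold above the limit. Ifng, interferon gamma, had 24 and 69 counts in shPogz, against 6 and 32 counts in its controls, and 10 and 42 counts in shAdnp, against 0 and 8 counts in its controls. In shPogz the lower Ifng count came from a shallower library than the higher control, and the levels were 0.561 and 1.81 CPM in shPogz, against 0.212 and 0.455 CPM in its controls. Of the 10 ligand genes listed, only Ifng passed the filter on low counts, with log2 fold changes of 1.74 (SE 1.02, adjusted p = 0.674) in shPogz and 2.81 (SE 1.21, adjusted p = 0.589) in shAdnp. The Ifng value was 0.68 in shPogz without shPogz replicate 2, and 1.86 in shAdnp without replicate 1 of its controls. Summed over the 10 genes, ligand transcripts came to 0.795 and 2.96 CPM in shPogz, against 0.212 and 0.597 CPM in its controls, and to 0.261 and 0.99 CPM in shAdnp, against 0.0981 and 0.159 CPM in its controls.

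Between receptor and factor stand the JAK kinases and other STATs, of which 7 were listed. None passed the adjusted p in either comparison, and the median log2 fold change was 0.36 in shPogz and 0.37 in shAdnp. In each comparison 3 of 7 were under the unadjusted threshold upward and 0 downward. Of all genes, 4.05% were under it upward in shPogz and 6.67% in shAdnp. Stat3, the factor of interleukin-6 signalling, had 102 and 181 CPM in shPogz, against 69.2 and 84.8 CPM in its controls (log2 fold change 0.88, SE 0.25, edgeR adjusted p = 0.667, DESeq2 adjusted p = 0.0232). In shAdnp Stat3 had 93.4 and 92.3 CPM, against 59.9 and 70.2 CPM in its controls (log2 fold change 0.51, edgeR adjusted p = 0.657). Stat5a had a log2 fold change of 0.39 in shPogz and 0.86 in shAdnp, and Stat6 of 0.52 in shPogz and 0.51 in shAdnp.

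Of the other 4 IRFs, none passed the adjusted p. In shPogz 0 were under the unadjusted threshold, beside 4.05% of all genes upward, and in shAdnp 3 were, all upward, beside 6.67%. Irf5, a myeloid factor downstream of Toll-like receptors, had 16.4 and 15.4 CPM in shAdnp, against 3.79 and 7.4 CPM in its controls (log2 fold change 1.5, SE 0.46, edgeR adjusted p = 0.406, DESeq2 adjusted p = 0.0025), and 13.1 and 28.1 CPM in shPogz, against 7.71 and 11.6 CPM in its controls (1.08, SE 0.45, edgeR adjusted p = 0.667). Irf4, a lymphoid factor, had 5.8 and 3.51 CPM in shPogz, against 7.18 and 6.86 CPM in its controls (log2 fold change -0.59, SE 0.32, adjusted p = 0.667). In shAdnp Irf4 had 1.81 and 1.98 CPM, against 0.719 and 1.27 CPM in its controls (log2 fold change 0.92). Irf2 had a log2 fold change of 0.12 in shPogz and 0.32 in shAdnp.

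Of the 10 genes that carry signals to IRF3 and IRF7, 3 were under the unadjusted threshold upward in shPogz and 5 in shAdnp. None was under it downward, and the shares of all genes upward were 4.05% in shPogz and 6.67% in shAdnp. The medians of the 10 genes were 0.22 in shPogz and 0.38 in shAdnp. Ikbke, a kinase that phosphorylates both factors, had 5.02 and 5.47 CPM in shAdnp, against 1.5 and 2.02 CPM in its controls (log2 fold change 1.57, SE 0.37, edgeR adjusted p = 0.295, DESeq2 adjusted p = 0.00281). Tmem173, which encodes the DNA-sensing adaptor STING, had 10.8 and 12.8 CPM in shAdnp, against 3.89 and 5.89 CPM in its controls (log2 fold change 1.27, edgeR adjusted p = 0.334, DESeq2 adjusted p = 0.00418). Both genes also lay above the controls in shPogz, Ikbke with a log2 fold change of 0.93 and Tmem173 with 0.90, with an edgeR adjusted p of 0.667 for each.

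Of 11 negative regulators, 3 were under the unadjusted threshold upward and 0 downward in each comparison, with medians of 0.12 in shPogz and 0.11 in shAdnp. Of all genes, 4.05% were under it upward in shPogz and 6.67% in shAdnp. Usp18, an interferon-induced protease that docks on IFNAR2 and dampens its signal, had 30.2 and 102 CPM in shPogz, against 7.75 and 7.89 CPM in its controls (log2 fold change 3.07, SE 0.89, edgeR adjusted p = 0.667), and 8.94 and 10.6 CPM in shAdnp, against 2.01 and 8.28 CPM in its controls (0.92, adjusted p = 0.848). Socs3 had 10.8 and 9.85 CPM in shAdnp, against 3.09 and 4.65 CPM in its controls (log2 fold change 1.42, SE 0.41, edgeR adjusted p = 0.381, DESeq2 adjusted p = 0.00516), and a log2 fold change of 1.16 in shPogz. Ptpn6, the phosphatase SHP-1 of blood cells and microglia, had 34 and 27.1 CPM in shAdnp, against 5.51 and 10.3 CPM in its controls (log2 fold change 1.95, SE 0.48, edgeR adjusted p = 0.354, DESeq2 adjusted p = 0.0163). With shPogz replicate 2 left out, Usp18 stood at 1.95 in shPogz, and with replicate 1 of the Adnp-set controls left out it stood at 0.25 in shAdnp. Over the lists of JAK and STAT genes, other IRFs, activators and negative regulators, fewer genes were under the unadjusted threshold in shPogz without shPogz replicate 2. The same held in shAdnp without replicate 1 of the Adnp-set controls. The DESeq2 calls among these genes were lost in either case. Over all genes tested, the counts by that threshold and by DESeq2 also fell in both refits, so the loss was not particular to these lists.

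Downstream, the 21 listed genes that ISGF3 is known to induce all had fold changes above 0 in both comparisons, and their median on the log2 scale was 2.51 in shPogz and 1.20 in shAdnp. In shPogz 19 of 21 were under the unadjusted threshold, beside 4.05% of all genes upward, and DESeq2 called 8, beside 0.574%. In shAdnp 2 were under that threshold, beside 6.67% of all genes, and DESeq2 called 0, beside 2.39%. None passed edgeR's adjusted p. Rsad2, which encodes the antiviral enzyme viperin, had 54.2 and 203 CPM in shPogz, against 9.41 and 7.22 CPM in its controls (log2 fold change 3.96, SE 0.82, edgeR adjusted p = 0.667, DESeq2 adjusted p = 0.00069). In shAdnp it had 15.1 and 16.8 CPM, against 4.1 and 9.79 CPM in its controls (log2 fold change 1.20, SE 0.75, edgeR adjusted p = 0.762). Summed CPM of the 21 genes came to 842 and 2560 in shPogz, against 318 and 328 in its controls, and to 436 and 528 in shAdnp, against 135 and 316 in its controls, and the 3 libraries highest for Irf7 were also the 3 highest for these genes. The shPogz median was 1.56 without shPogz replicate 2, with Rsad2 at 2.72. It was 2.6 without replicate 2 of the Pogz-set controls and 2.49 without replicate 1 of them. In each of these refits fewer of the 21 genes were under the unadjusted threshold. Over all genes the upward count fell without shPogz replicate 2 or replicate 1 of the controls, and rose without replicate 2 of the controls. The shAdnp median was 0.66 without replicate 1 of its controls, with Rsad2 at 0.72, and 2.21 without replicate 2 of its controls. Fewer of the 21 genes were under the threshold in the former case and more in the latter, as also held over all genes tested.

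The 12 listed targets of IRF1 in antigen presentation and cell-autonomous defence all had fold changes above 0 as well, with a median of 1.85 in shPogz and 1.66 in shAdnp. In shPogz 2 of 12 were under the unadjusted threshold, Cd274 and Psmb10, beside 4.05% of all genes upward, and in shAdnp 0 were, beside 6.67%. Cd274, the checkpoint ligand PD-L1, had 28.8 and 86 CPM in shPogz, against 5.02 and 12.2 CPM in its controls (log2 fold change 2.71, SE 0.87, adjusted p = 0.667), and 10 and 18.6 CPM in shAdnp, against 2.62 and 7.15 CPM in its controls (1.55, SE 0.86, adjusted p = 0.73). Summed CPM of the 12 genes came to 647 and 1740 in shPogz, against 240 and 417 in its controls, and to 320 and 613 in shAdnp, against 88.1 and 265 in its controls. Without shPogz replicate 2 the shPogz median was 1.01, with Cd274 at 1.72, and without replicate 1 of the Adnp-set controls the shAdnp median was 0.99, with Cd274 at 1.02. In the former refit Cd274 and Psmb10 were no longer under the unadjusted threshold, and fewer of all genes tested were under it. Without replicate 2 of the Adnp-set controls the shAdnp median was 2.93, and more of the 12 genes were under it.

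Microglial markers were higher beside the 9 genes in shAdnp. The 11 markers measured, among them P2ry12, Tmem119 and Csf1r, summed to 1720 and 1160 CPM in shAdnp, against 538 and 709 CPM in its controls. All 11 were under the unadjusted threshold upward, beside 6.67% of all genes, and DESeq2 called 8, beside 2.39%. With 1 library of the set left out, their median log2 fold change ran between 0.78 and 1.23. Fewer of the 11 were then under that threshold, and the DESeq2 calls were lost without replicate 1 of the controls. The DESeq2 calls over all genes fell as well in that refit. In shPogz the markers summed to 1050 and 1690 CPM, against 916 and 945 CPM in its controls. There 0 of 11 were under the unadjusted threshold, beside 4.05% of all genes upward. No marker of the list was at 0 in any library. Their part in the results for the 9 genes was not tested.

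Set against those markers, only Irf8 of the 9 genes lay above its controls without overlap in shAdnp. Per 100 CPM of summed microglial markers, Irf8 stood at 1.81 and 2.9 CPM in shAdnp, against 0.951 and 1.56 CPM in its controls. In shPogz the Irf8 ratio was 2.72 and 4.33 CPM, against 1.57 and 2.71 CPM in its controls. On the same scale Ifngr1 stood at 2.34 and 2.59 CPM in shAdnp, against 3.4 and 3.37 CPM in its controls, and Ifnar2 at 1.54 and 2.04 CPM in shAdnp, against 2.88 and 2.67 CPM in its controls. In shAdnp those receptor chains, which lay above the controls as plain CPM, thus lay below them per microglial marker. So did Ifnar1, at 4.6 and 7.42 CPM, against 12.7 and 10.5 CPM, and Irf3, at 0.951 and 1.45 CPM, against 2.34 and 1.86 CPM. Irf1 overlapped in shAdnp, at 1.94 and 4.89 CPM, against 1.54 and 3.49 CPM. In shPogz Ifnar2 (2.4 and 2.1 CPM, against 2.08 and 2.24 CPM) and Ifngr1 (3.42 and 2.91 CPM, against 3.43 and 3.15 CPM) overlapped their controls. Irf7 stood at 5.15 and 9.42 CPM in shPogz, against 1.32 and 2.28 CPM in its controls, without overlap, and at 1.09 and 3.27 CPM in shAdnp, against 0.647 and 2.45 CPM in its controls, with overlap. Stat2 in shPogz stood at 5.29 and 7.75 CPM, against 3.39 and 4.01 CPM in its controls, and Irf9 at 3.89 and 5.47 CPM in shPogz, against 2.28 and 2.38 CPM in its controls, both without overlap. In shAdnp both overlapped, Stat2 at 1.78 and 4.42 CPM, against 4.33 and 4.33 CPM in its controls, and Irf9 at 1.56 and 2.67 CPM, against 1.72 and 3.38 CPM in its controls. These ratios are descriptions with no test, and microglia are not the only cells that make these transcripts.

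**Figure D4:**
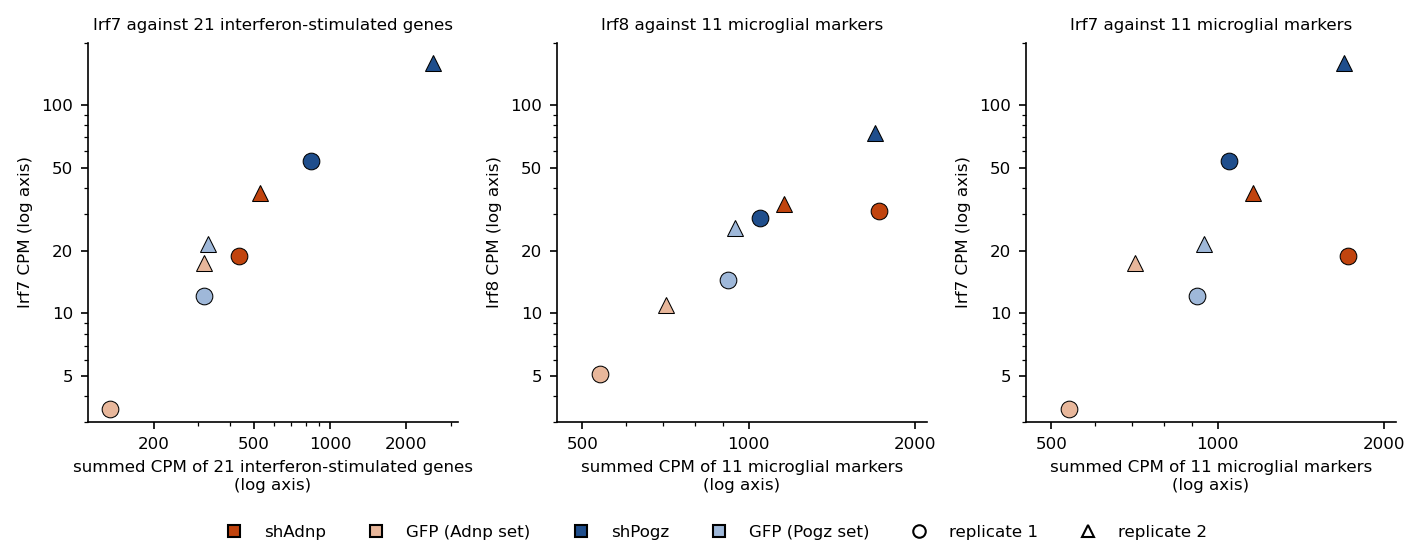
CPM of Irf7 against the summed CPM of 21 interferon-stimulated genes, of Irf8 against 11 microglial markers and of Irf7 against the same markers, all on log axes, with 1 symbol per library. At similar marker sums of 1720 and 1690 CPM, shAdnp replicate 1 has 18.8 CPM of Irf7 and shPogz replicate 2 has 159 CPM. At sums of 1160 and 1050 CPM, shAdnp replicate 2 has 37.8 CPM of Irf7 and shPogz replicate 1 has 54.1 CPM. These are single libraries of different sets, and no test was made on them.

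Markers of blood leukocytes also differed between libraries. The 12 genes summed to 52.4 and 115 CPM in shPogz, against 28 and 53.3 CPM in its controls. In shPogz 0 of 12 were under the unadjusted threshold, beside 4.05% of all genes upward. The same genes summed to 16.2 and 44.3 CPM in shAdnp, against 3.25 and 16.5 CPM in its controls. Here 1 of 12 was under that threshold upward and 1 downward, beside 6.67% of all genes upward and 295 of 17415 downward. The defining T cell markers Cd3e, Cd3d and Cd3g were at 0 in replicate 1 of the Adnp-set controls, the library lowest for 8 of the 9 genes, and above 0 in all others. Markers of meningeal fibroblasts summed to 159 and 162 CPM in shAdnp, against 79.9 and 82.9 CPM in its controls. All 6 of 6 were under the unadjusted threshold upward there, beside 6.67% of all genes. These markers summed to 130 and 144 CPM in shPogz, against 83 and 127 CPM in its controls. In shPogz 4 of the 6 fibroblast markers were above 0, with 0 of 6 under the threshold upward and 1 downward, Igf2 (log2 fold change -0.39, edgeR unadjusted p = 0.0482). Of all genes in shPogz, 4.05% were under it upward and 461 of 17415 downward. Of 6 astrocyte markers, 3 were under the unadjusted threshold upward in shAdnp, with Gfap and Aqp4 called by DESeq2. In shPogz 0 were under it upward and 1, Aldh1l1, downward. The shares of all genes upward were 6.67% by that threshold and 2.39% by DESeq2 in shAdnp, and 4.05% by the threshold in shPogz. Gfap, the filament protein of reactive astrocytes, had 767 and 393 CPM in shAdnp, against 93.7 and 191 CPM in its controls (log2 fold change 2.03, SE 0.46, edgeR adjusted p = 0.334, DESeq2 adjusted p = 0.00435). The part of these cells in the results for the 9 genes was not tested. Median log2 fold changes of astrocyte, oligodendrocyte, endothelial and neuronal markers were 0.22, -0.03, 0.10 and -0.08 in shAdnp and -0.17, 0.45, -0.09 and -0.20 in shPogz.

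For the 3 genes with the largest spread, the tested genes with the most similar profile over the 8 libraries were found by the root mean square difference of mean-centred log2 CPM. Irf7 was closest to Gbp6 (0.17), Gbp4 (0.20), F830016B08Rik (0.20), Igtp (0.21) and Ifi47 (0.21). Irf1 was closest to Irgm2 (0.10), Irgm1 (0.11), Fgl2 (0.14), Bcl2a1d (0.15) and Gpr35 (0.16). Irf8 was closest to Csf2rb (0.13), Capg (0.14), Cxcl16 (0.16), Ctsc (0.17) and Hoxb4 (0.19), the last of which reached at most 0.524 CPM. Gbp4, Gbp6, Irgm1, Irgm2, Igtp and Ifi47 belong to families of interferon-inducible GTPases whose members resemble one another in sequence, so their counts are uncertain where reads match several copies. Among the 9 genes themselves, Irf1 and Irf8 differed by 0.31, Stat2 and Irf9 by 0.32 and Irf1 and Irf9 by 0.34, whereas Irf7 and Ifnar1 differed by 1.46.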

How the data were processed

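Per the labels' protocols, the samples were biological duplicates and stranded total RNA libraries, depleted of ribosomal RNA, were read on a HiSeq instrument. The authors deposited whole-number read counts for each gene symbol. STAR, featureCounts and DESeq2 with mm10 are named in the submitters' processing notes. Cutadapt and TopHat2 on RefSeq transcripts are named in the labels' protocols. The sources used here give no versions, strand setting or treatment of reads with several matches, so genes that overlap others are uncertain. Per the file headers, Pogz replicate 2 is numbered 3. In each library 25 identifiers that had become calendar dates (0.306% to 0.337% of counts) and 2 blank lines were left out, leaving 23393 genes.

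The 9 genes and all lists were chosen with earlier results of these data known. In R 4.3.3, edgeR 4.0.16 kept 17415 genes (filterByExpr, minimum count 10), scaled libraries by TMM and fitted a robust quasi-likelihood model with 1 mean per group to all 8 libraries, which left 4 residual degrees of freedom (common biological coefficient of variation 0.171). P-values were adjusted over all tested genes by Benjamini-Hochberg at 0.05. The fit was tested on simulated data. CPM values are TMM-scaled, and RPKM used union exon lengths and coordinates of GENCODE M21 on GRCm38. Promoter windows came from RefSeq on GRCm38.p6, and all 9 genes matched by symbol. DESeq2 1.42.0 and limma-voom (limma 3.58.1) were alternatives.

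All 9 genes are named in every comparison, as are up to 4 genes per pathway list, those with the smallest p in either knockdown comparison, and the 5 nearest profiles of the 3 most variable genes. Only a part of the pathway genes this rule gives are described, and some single-gene results are not reported here. Replicate pairs differed beyond sampling noise (chi-square over its degrees of freedom 29.2 to 286), so each library was counted once. Nothing in the labels says that the replicate numbers pair libraries, and the main model held no block for them. With 2 libraries a group, p-values measure the spread between these libraries. The microglial marker Spi1 was not analysed here. The share of counts taken by the ribosomal RNA precursor Rn45s was 7.62% in shAdnp replicate 1 and 0.134% to 0.74% in the other libraries.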

Additional observations from a re-analysis of the deposited data

How the results depend on the processing

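All 9 genes kept a fold change above 0 in shAdnp, in shPogz and in the average under each alternative run. Other thresholds, tools and designs moved the counts of genes called, which by edgeR's adjusted p were 0 in shAdnp, shPogz, their difference and the average and 1 between the GFP pairs. At an unadjusted p under 0.05 the counts were 1456 in shAdnp, 1167 in shPogz, 612 for the difference, 1280 between the GFP pairs and 2171 for the average. DESeq2 called 420, 100, 2, 73 and 711 in that order. At an adjusted p of 0.1, and also with no filter, 6 genes passed between the GFP pairs. The replicate number as a block gave 175 genes in shAdnp, 31 in shPogz, 18 between the GFP pairs and 405 for the average. The labels do not tie the numbers to a shared animal or day. Over all tested genes, deviations of same-numbered libraries from their group means correlated at -0.01 in the Adnp set, 0.05 in the Pogz set and -0.08 to 0.31 across sets, whereas for 6 of the 9 genes (Ifnar1, Stat2, Irf9, Irf1, Irf7 and Irf8) replicate 2 lay above replicate 1 in all 4 groups. Under the block Irf1 (adjusted p = 0.0481) and Irf8 (0.028) passed in shAdnp, and Irf1, Irf8, Ifnar2 and Irf7 in the average (0.00379, 0.0251, 0.0288 and 0.0395).

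With both outlying libraries left out, chosen after seeing the data, 8 genes passed in shPogz and 2 in the average, and the shPogz median of the 9 genes was 0.51. With each library left out in turn, counts ran between 0 and 8 in shAdnp, 0 and 153 in shPogz, 0 and 4 for the difference, 0 and 6 between the GFP pairs and 0 and 556 for the average, and the shPogz median ran between 0.51 and 1.9. Without shPogz replicate 1, the median log2 fold change of the 9 genes in the average was 1.17.

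The difference between responses turned its sign for Irf1 under limma-voom (-0.01) and with both outlying libraries left out (-0.01), and for Ifnar2 in that last case (-0.08). With 1 library left out it ran between -0.22 and 0.31 for Ifnar2, -0.65 and 0.94 for Irf1, -0.37 and 1.95 for Irf7, -0.02 and 1.35 for Irf9 and -0.21 and 0.04 for Irf3. Between the GFP pairs Irf9 ran between -0.12 and 1.23, Irf7 between -0.01 and 2.29 and Irf3 between -0.09 and 0.16 when 1 library was left out. The cause of these moves was not tested. Depth was ample for the 9 genes, whose smallest count in a library was 213, and limited the interferon ligands.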
